A study of Mus musculus with 6 samples.

Results

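The alpha-1-antitrypsin gene family of the mouse, Serpina1a, Serpina1b, Serpina1c, Serpina1d and Serpina1e, was followed in a bulk poly(A) RNA sequencing study of liver. The 5 genes were matched by exact symbol in a table of 35976 gene symbols, and all 5 passed the filter on low counts. They were chosen by the difference in their counts between the genotypes in these same libraries. The tested livers were from male mice of genotype IRE1PKO (3 libraries) and were set against livers of genotype IRE1fl (3 libraries). All mice were on a diet labelled HFD, read as high-fat diet, and were fed for 4 hours after a fast of 16 hours. The labels do not spell out PKO or name the Cre driver, the mouse strain or the age, and the title of the series places the study between pituitary and liver. IRE1 is the endoplasmic reticulum stress sensor encoded by Ern1. Liver Ern1 had 45.7, 36.6 and 44.2 CPM, counts relative to the scaled library total, in IRE1PKO, against 61.2, 49.3 and 60.8 CPM in IRE1fl. Its log2 fold change was -0.44 (SE 0.11, edgeR adjusted p = 0.0357), a call lost without any one of 5 of the 6 libraries, all but IRE1fl 02, and also under limma-voom or when libraries were scaled by their totals alone. If the deletion lies outside the liver, that value does not check the genotype labels. Library totals ran from 35776219 to 39277435 counts, and Alb, the albumin gene that marks hepatocytes, took 5.56% to 7.19% of them.

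Alpha-1-antitrypsin is a serpin, a suicide inhibitor that presents an exposed reactive loop as bait to a serine protease and traps the enzyme when the loop is cut. Hepatocytes make it in large amounts and secrete it into plasma, where it protects tissue from neutrophil elastase. Humans carry a single SERPINA1 gene, whereas the mouse has a row of near-identical copies whose number is known to differ between strains. The mouse copies are known to differ most in the reactive loop, which sets the proteases that each one can trap.

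In the GRCm38 build the 5 genes lie on the minus strand of chromosome 12 between 103728156 and 103956897, in the order Serpina1b, Serpina1d, Serpina1a, Serpina1c and Serpina1e. Their coding sequences, from GENCODE release M21, are all 1239 bases long and align without gaps. Pairs of copies were 96.3% to 98.5% identical, with Serpina1a and Serpina1c closest at 19 different bases and Serpina1e 43 to 46 bases from each of the other 4. At 86 of the 1239 positions the 5 copies were not all the same. The 60-base window with the most such positions held 18 of them, against a median of 4 over all windows. It covers coding bases 1101 to 1160, in the last exon, which encodes the reactive loop. The window is shown because it is the place where the copies are easiest to tell apart, with the bases that are not shared by all 5 in capitals.
Serpina1e, chr12:103947100-103947159: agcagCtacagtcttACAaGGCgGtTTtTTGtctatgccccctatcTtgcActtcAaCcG
Serpina1a, chr12:103853757-103853816: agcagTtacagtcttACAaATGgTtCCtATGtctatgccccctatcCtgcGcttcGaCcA
Serpina1b, chr12:103728324-103728383: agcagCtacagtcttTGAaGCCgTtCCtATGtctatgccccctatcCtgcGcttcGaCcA
Serpina1c, chr12:103895094-103895153: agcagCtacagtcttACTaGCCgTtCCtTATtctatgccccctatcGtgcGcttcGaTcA
Serpina1d, chr12:103763762-103763821: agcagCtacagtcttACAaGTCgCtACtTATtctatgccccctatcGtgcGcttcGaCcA

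How well a read can be given to 1 copy follows from the same comparison. Of all 100-base stretches of its transcript, 81.8% occurred in no other GENCODE gene for Serpina1e, 73.6% for Serpina1b and 70.7% for Serpina1d, but only 41.5% for Serpina1c and 39% for Serpina1a. With 50-base stretches these shares were 62.1% for Serpina1e, 52.9% for Serpina1b, 49.1% for Serpina1d, 25.8% for Serpina1c and 19.1% for Serpina1a. Neither the read length nor the rule for reads that match several copies is stated in the labels. The split among Serpina1a, Serpina1b, Serpina1c and Serpina1d is therefore less certain than the sum over the family. Serpina1e is the copy with the largest share of sequence of its own. The sum has a limit too. Of 100-base stretches, 83.7% (Serpina1a) to 91.4% (Serpina1e) occurred in no gene outside the family. With 50-base stretches these shares were 56.3% (Serpina1a) to 77% (Serpina1e). The remaining stretches also occurred in genes outside the family, so the rule for shared reads can alter the sum as well.

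The values that follow are those for which the family was chosen, so the differences between the genotypes are described and no test is attached to them. Summed over the 5 genes, Serpina1 transcripts made up 0.806%, 0.948% and 0.876% of all counts in IRE1PKO, against 1.72%, 1.70% and 2.19% in IRE1fl. The sum was 8040, 9263 and 8350 CPM in IRE1PKO, against 17239, 17286 and 23203 CPM in IRE1fl. Each IRE1PKO library was below each IRE1fl library. The mean was 8551 ± 636 CPM in IRE1PKO and 19243 ± 3430 CPM in IRE1fl (SD, n = 3 each). The log2 fold change of the summed counts, IRE1PKO over IRE1fl, was -1.17 (SE 0.15). In bulk tissue, fewer hepatocytes and less transcript per hepatocyte cannot be told apart.

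Serpina1e differed most. It had 144, 181 and 195 CPM in IRE1PKO, against 3234, 4195 and 8470 CPM in IRE1fl. The lowest IRE1fl library was 16.6 times the highest IRE1PKO library, and the means were 173 ± 26.4 CPM in IRE1PKO and 5300 ± 2787 CPM in IRE1fl (SD, n = 3 each). The IRE1fl mean was 30.6 times the IRE1PKO mean, with a log2 fold change of -4.93 (SE 0.46). Of 14954 genes tested in the whole table, 5 had a lower log2 fold change. The IRE1fl livers themselves spread widely, with a highest library 2.62 times the lowest and a coefficient of variation of 52.6%, against 15.3% in IRE1PKO. IRE1fl 03 stood above the other IRE1fl libraries, and without it the log2 fold change of Serpina1e was -4.42 and that of the sum was -1.01.

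The other 4 copies were lower in IRE1PKO by smaller amounts, with little spread inside each genotype. Serpina1c had 1328, 1762 and 1544 CPM in IRE1PKO, against 3769, 3334 and 3284 CPM in IRE1fl, a log2 fold change of -1.16 (SE 0.13). Serpina1a had 1431, 1597 and 1455 CPM in IRE1PKO, against 2703, 2618 and 3058 CPM in IRE1fl, a log2 fold change of -0.90 (SE 0.11). The genotypes did not overlap for either copy. Serpina1d had 1334, 1661 and 1357 CPM in IRE1PKO, against 2311, 2270 and 2728 CPM in IRE1fl, a log2 fold change of -0.75 (SE 0.13). Serpina1b had 3803, 4063 and 3799 CPM in IRE1PKO, against 5221, 4869 and 5663 CPM in IRE1fl, a log2 fold change of -0.43 (SE 0.11). Serpina1b thus had the smallest difference of the family, its IRE1fl mean being 1.35 times its IRE1PKO mean, and its genotypes did not overlap either. The coefficient of variation of these 4 copies was 3.89% to 14.0% in IRE1PKO and 7.58% to 10.4% in IRE1fl. Summed without Serpina1e, a step added after the values were seen, they had 8378 ± 624 CPM in IRE1PKO and 13943 ± 823 CPM in IRE1fl (SD, n = 3 each). Their log2 fold change was -0.74 (SE 0.12).

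By edgeR with a threshold of 0.05 on the adjusted p, all 5 genes were called lower in IRE1PKO. Among all tested genes 9.54% were called, 5.68% as higher and 3.86% as lower. All 5 had genotypes that did not overlap, as did 31.0% of all tested genes, 15.0% with IRE1PKO lower. The family was picked with these calls known, so the counts describe the choice and are not read further.

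**Figure D1:**
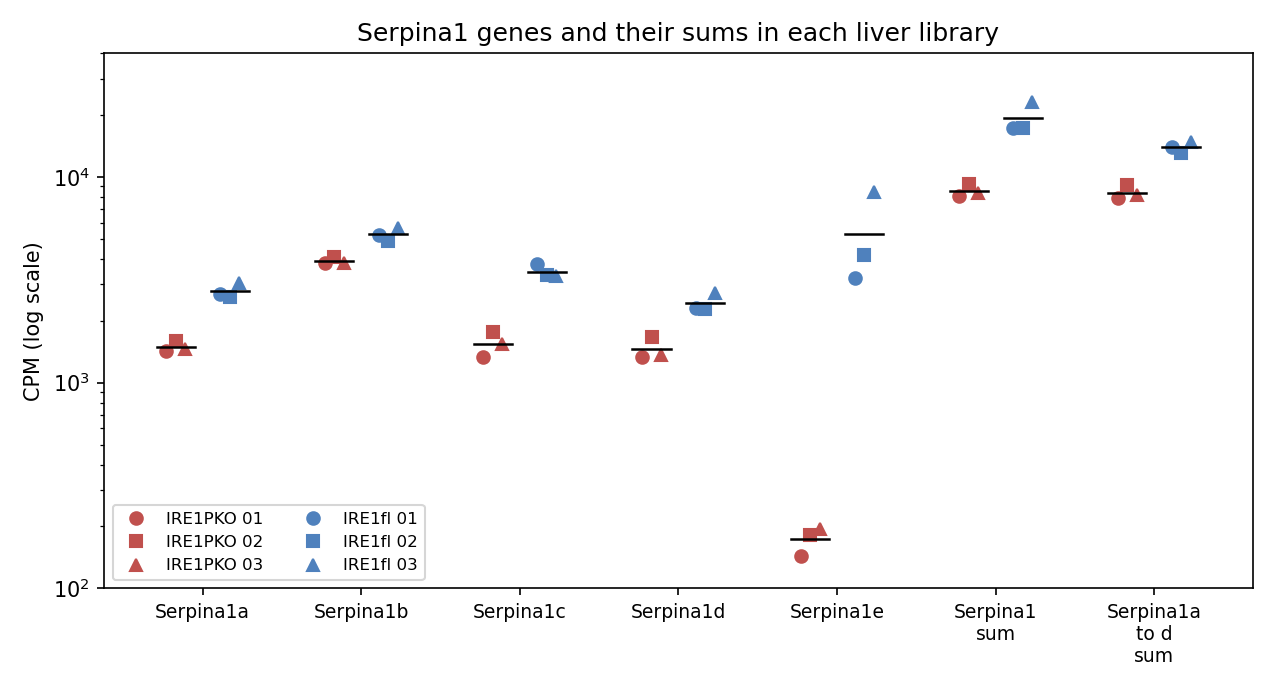
CPM of each Serpina1 gene, of the sum of all 5 and of the sum of Serpina1a to Serpina1d, on a log axis, with IRE1PKO libraries (red) left of IRE1fl libraries (blue), a marker shape per library number and a bar at the mean of 3 libraries. Serpina1e lies at 144 to 195 CPM in IRE1PKO and at 3234 to 8470 CPM in IRE1fl, a wider gap than for any other copy.

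The order of the copies differed between the genotypes. Levels are given here as CPM per kilobase of coding sequence, which has the same length in all 5. The order also depends on how reads shared by several copies were counted, which is not stated, and dropping them would lower Serpina1a and Serpina1c most. Orders between copies within a genotype are therefore those of the deposited counts. In IRE1PKO, Serpina1b was highest with 3138 ± 122, followed by Serpina1c with 1247 ± 175, Serpina1a with 1206 ± 72.2 and Serpina1d with 1171 ± 147, and Serpina1e was lowest with 140 ± 21.3 (CPM per kilobase, SD, n = 3). Serpina1c, Serpina1a and Serpina1d overlapped in IRE1PKO and changed places from library to library, whereas Serpina1b was always first and Serpina1e always last. In IRE1fl, Serpina1e had 4277 ± 2250 and Serpina1b 4238 ± 321, followed by Serpina1c with 2795 ± 216, Serpina1a with 2254 ± 189 and Serpina1d with 1966 ± 205 (CPM per kilobase, SD, n = 3). Serpina1a was above Serpina1d in each IRE1fl library, though their ranges overlapped between libraries. Serpina1e was in place 3 of the family in IRE1fl 01, in place 2 in IRE1fl 02 and in place 1 in IRE1fl 03, so its place there was not set beyond the spread between libraries.

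As a share of the summed Serpina1 counts, which does not depend on how libraries are scaled, Serpina1e made up 1.79%, 1.96% and 2.33% in IRE1PKO, against 18.8%, 24.3% and 36.5% in IRE1fl. The difference of the means was -24.5 percentage points, and -19.5 points without IRE1fl 03. Serpina1b took 45.6% ± 1.72 of the sum in IRE1PKO and 27.6% ± 2.98 in IRE1fl (SD, n = 3 each). Of the drop in mean CPM of the whole family, 47.9% lay in Serpina1e, 17.9% in Serpina1c, 12.7% in Serpina1b, 12.1% in Serpina1a and 9.22% in Serpina1d. In the deposited counts, the 4 copies other than Serpina1e also did not keep their proportions. The shares of single copies and their parts of the drop depend too on how reads shared by several copies were counted, which is not stated. Among these 4 alone, Serpina1b held 48.2%, 44.7% and 46.6% of counts in IRE1PKO, against 37.3%, 37.2% and 38.4% in IRE1fl. Serpina1c held 16.8%, 19.4% and 18.9% in IRE1PKO, against 26.9%, 25.5% and 22.3% in IRE1fl. Serpina1d kept nearly the same share, at 17.3% ± 0.889 in IRE1PKO and 17.5% ± 1.01 in IRE1fl (SD, n = 3 each).

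**Figure D2:**
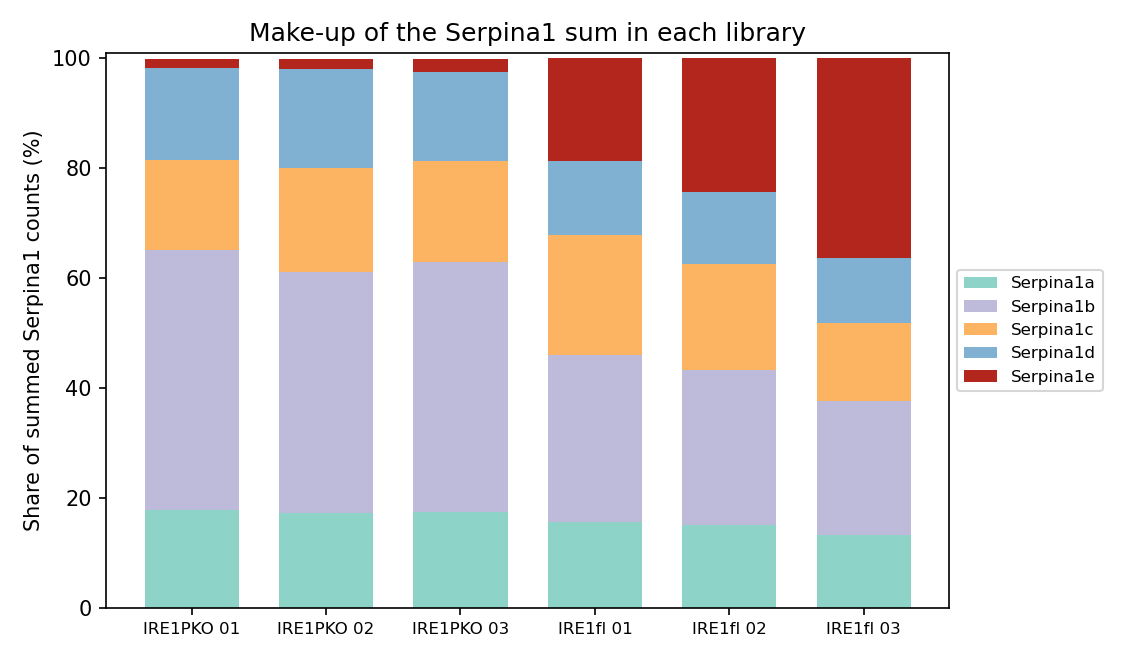
Share of the summed Serpina1 counts (percent) held by each copy in each library, IRE1PKO on the left and IRE1fl on the right. The Serpina1e segment is 1.79% to 2.33% in IRE1PKO and 18.8% to 36.5% in IRE1fl, where it is tallest in IRE1fl 03.

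The copies were closely alike over 100 bases compared near their annotated starts, a stretch placed around a sequence that all 5 share. RefSeq windows from 250 bases before to 50 after the annotated start (GRCm38.p6) were found for all 5 genes. The rest of these windows was not compared between the copies. The 100 bases are shown so that the copies can be compared, with bases not shared by all 5 in capitals.
Serpina1e, chr12:103956916-103957015: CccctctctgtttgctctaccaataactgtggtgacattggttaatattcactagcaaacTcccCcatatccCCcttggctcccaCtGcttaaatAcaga
Serpina1a, chr12:103863581-103863680: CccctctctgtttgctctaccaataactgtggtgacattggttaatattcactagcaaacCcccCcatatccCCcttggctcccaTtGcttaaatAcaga
Serpina1b, chr12:103738156-103738255: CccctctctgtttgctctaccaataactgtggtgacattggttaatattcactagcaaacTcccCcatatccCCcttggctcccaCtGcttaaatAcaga
Serpina1c, chr12:103904918-103905017: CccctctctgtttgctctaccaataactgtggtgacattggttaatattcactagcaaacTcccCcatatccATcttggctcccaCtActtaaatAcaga
Serpina1d, chr12:103773590-103773689: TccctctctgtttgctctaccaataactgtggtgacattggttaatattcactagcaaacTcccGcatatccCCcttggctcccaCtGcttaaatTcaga

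Only 8 of the 100 positions differed, and over this window Serpina1e differed from Serpina1b at no position. Whether promoter sequence bears on the levels or fold changes of the copies was not tested. The window begins 118 bases before the annotated start in Serpina1e and 56 to 67 bases before it in the other 4. It thus lies wholly before the annotated start in Serpina1e but runs past it, into the annotated transcript, in the other 4.

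Along the chromosome, the log2 fold changes of the family ran from -0.43 at Serpina1b through -0.75 at Serpina1d, -0.90 at Serpina1a and -1.16 at Serpina1c to -4.93 at Serpina1e, in the order of position. The genes around them belong to the same clade of serpins. Of 19 other clade A serpin genes listed for this cluster, 11 were tested, 2 fell and none rose. Over all tested genes 3.86% were called lower and 5.68% higher. The list had a median log2 fold change of 0.01, against 0.00 over all tested genes. Serpina11, the next gene after Serpina1e (chromosome 12, 103980243 to 103989968), had 67.2, 58.7 and 62.8 CPM in IRE1PKO, against 88.7, 99.2 and 118.5 CPM in IRE1fl, and fell by 0.70 on the log2 scale (SE 0.11, edgeR adjusted p = 0.00320). Serpina9, the gene after that, had counts in only 1 IRE1PKO library (0, 0 and 0.293 CPM), against 0.554, 1.96 and 2.40 CPM in IRE1fl. Its log2 fold change was -3.97 (SE 1.10), and it did not pass (edgeR adjusted p = 0.0672). Serpina9 did pass by limma-voom (adjusted p = 0.0367) and in edgeR without IRE1PKO 03 (0.0102) and without IRE1fl 01 (0.0365). On the other side, Serpina1f had no count in any library, which at 3 counts allows up to 0.0733 to 0.0851 CPM for counting error only. Serpina6, which encodes the corticosteroid carrier of plasma, had 389 ± 49.98 CPM in IRE1PKO and 374 ± 25.5 CPM in IRE1fl (SD, n = 3 each; adjusted p = 0.796).

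Farther along the cluster, Serpina3k, one of the mouse copies related to human alpha-1-antichymotrypsin, had 1895, 2346 and 3771 CPM in IRE1PKO, against 5913, 7521 and 9389 CPM in IRE1fl. The log2 fold change was -1.51 (SE 0.29, edgeR adjusted p = 0.0228), with IRE1PKO 03 nearest to IRE1fl. The Serpina3k call was lost without IRE1PKO 02, IRE1fl 02 or IRE1fl 03 (adjusted p up to 0.0852) and without the filter on low counts (0.101). The count of falling cluster genes was 3 without IRE1PKO 03 or IRE1fl 01 and 1 without IRE1PKO 02, IRE1fl 02 or IRE1fl 03. Serpina3n, the copy most known for its acute phase response, had 572 ± 38.5 CPM in IRE1PKO and 551 ± 102.5 CPM in IRE1fl (adjusted p = 0.843). Serpina3m had 351 ± 3.26 CPM in IRE1PKO and 347 ± 14.5 CPM in IRE1fl (SD, n = 3 each; adjusted p = 0.939). The Serpina3 genes are related copies too. Their likeness was not measured here, so how well reads can be told apart among them is not known. Serpina10, Serpina12, Serpina3f, Serpina3g and Serpina3h did not pass, with log2 fold changes of -0.20, -0.12, 0.53, 0.23 and 1.03, and the remaining 7 listed genes had too few counts to be tested.

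**Figure D3:**
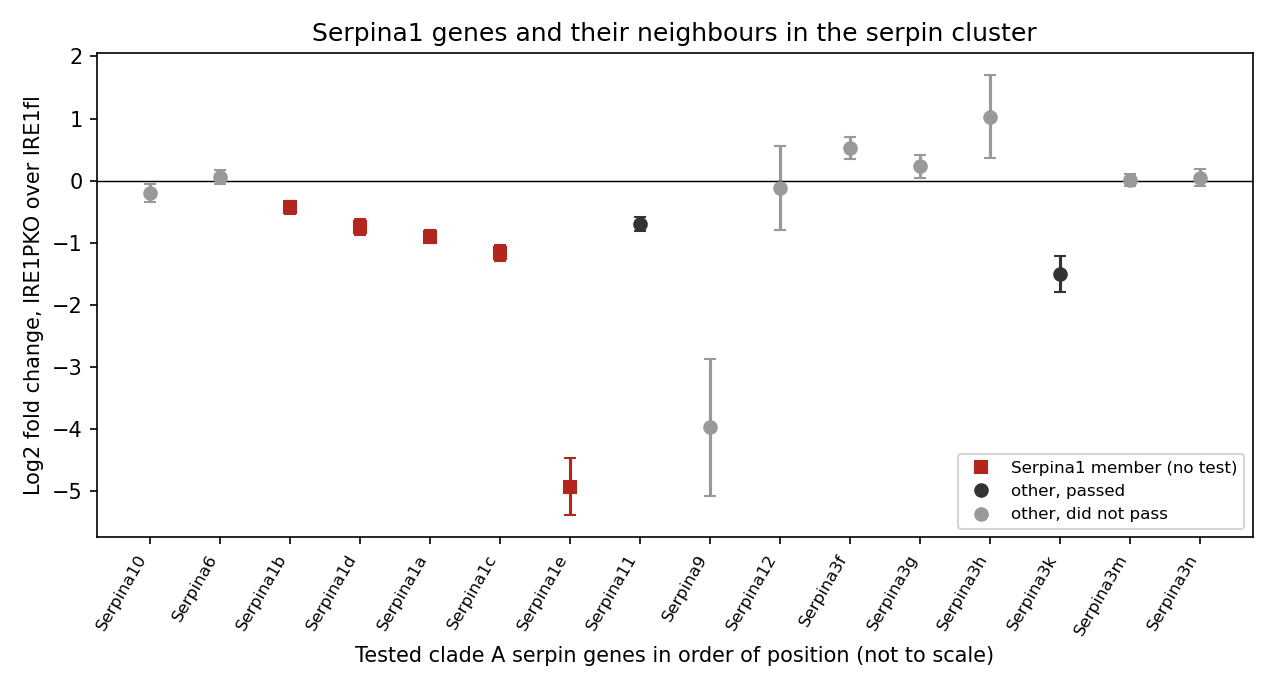
Log2 fold change, IRE1PKO over IRE1fl, with its SE for each tested clade A serpin gene, in order of position on chromosome 12 but not to scale. Serpina1 genes are red squares, other genes past the test black, and genes that did not pass grey. The Serpina1 genes run from -0.43 to -4.93. On one side Serpina6 lies at 0.06 and Serpina10 at -0.20. On the other, the next genes are Serpina11 at -0.70, Serpina9 at -3.97 (did not pass) and Serpina12 at -0.12. Beyond them lie Serpina3f at 0.53, Serpina3g at 0.23, Serpina3h at 1.03, Serpina3k at -1.51, Serpina3m at 0.01 and Serpina3n at 0.05.

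Outside the cluster, 10 further serpins were listed and tested, of which 3 rose and 4 fell (median log2 fold change -0.31). Shares over all tested genes were 5.68% higher and 3.86% lower. Serpina7, the thyroxine carrier of plasma, had 128, 140 and 151 CPM in IRE1PKO, against 50.4, 38.2 and 30.2 CPM in IRE1fl, and rose by a log2 value of 1.82 (SE 0.17, edgeR adjusted p = 9.4e-04). Serpinh1, the collagen chaperone of the endoplasmic reticulum, rose by 0.69 (SE 0.10, adjusted p = 0.00202). Among those that fell, Serpine2 had a log2 fold change of -2.31 (SE 0.20), Serpinf2, which inhibits plasmin, of -0.73 (SE 0.13), and Serping1, which inhibits complement C1, of -0.46 (SE 0.12). Serpinc1, the antithrombin gene and the most abundant of these in CPM, had 1597 ± 175.5 CPM in IRE1PKO and 1794 ± 61.2 CPM in IRE1fl (SD, n = 3 each; adjusted p = 0.389). The number that fell was 2 without any one IRE1PKO library or IRE1fl 03. The Serping1 call was lost without any one library other than IRE1fl 01.

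Among 19 transcription factors of hepatocyte secretory genes, 1 fell and none rose (median log2 fold change -0.14). As 3.86% of all tested genes were called lower and 5.68% higher, this count is not read further. The number that fell was 4 without IRE1fl 01, 2 without IRE1PKO 03 and 0 without IRE1PKO 02 or IRE1fl 02, and it was 5 by the DESeq2 Wald test. Hnf4a, a main regulator of hepatocyte genes, had 516 ± 7.998 CPM in IRE1PKO and 627 ± 42.1 CPM in IRE1fl (adjusted p = 0.0918). Stat5b, which carries the growth hormone signal to liver genes, had 72.4 ± 3.39 CPM in IRE1PKO and 87.8 ± 5.23 CPM in IRE1fl (SD, n = 3 each; adjusted p = 0.0645). Neither gene passed. Both sets of values did not overlap between the genotypes, as was so for 31.0% of all tested genes, 15.0% with IRE1PKO lower.

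Of 22 tested genes for folding, export and degradation of secretory glycoproteins in the endoplasmic reticulum, 1 fell and none rose. The median log2 fold change was -0.04. Over all tested genes 3.86% were called lower and 5.68% higher, and the count for this list is not read further. It was 2 with a block on replicate number and without the filter on low counts. Os9, a lectin that hands misfolded glycoproteins to degradation, had a log2 fold change of -0.43 (SE 0.09, edgeR adjusted p = 0.0137), a call lost without IRE1PKO 01 or IRE1fl 03. Lman1, the cargo receptor that carries alpha-1-antitrypsin out of the endoplasmic reticulum, had 234 ± 20.3 CPM in IRE1PKO and 275 ± 12.2 CPM in IRE1fl (adjusted p = 0.165). Canx, the lectin chaperone calnexin, had 325 ± 5.27 CPM in IRE1PKO and 315 ± 9.69 CPM in IRE1fl (SD, n = 3 each; adjusted p = 0.809).

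Among 6 receptors that clear serpin complexes or glycoproteins from plasma, 2 rose and 1 fell (median log2 fold change 0.00). For these and for the proteases below, the shares over all tested genes were 5.68% higher and 3.86% lower. Vldlr, a lipoprotein receptor, rose by 2.15 (SE 0.39, edgeR adjusted p = 0.0183). Lrp1, the main receptor for complexes of serpins with proteases, fell by 0.40 (SE 0.10, adjusted p = 0.0323). The Lrp1 call was lost without any one library and under scaling by library totals alone. The Vldlr call was lost without IRE1PKO 01, IRE1PKO 02 or IRE1fl 03 and without the filter on low counts. Of 9 tested serine proteases that serpins control, 2 fell and none rose (median -0.14), namely Klkb1, plasma prekallikrein, by 0.56 (SE 0.11) and Plg, plasminogen, by 0.53 (SE 0.12). Neither protease passed without IRE1PKO 01, nor did Plg without IRE1PKO 02, and 3 proteases fell without IRE1fl 01 or IRE1fl 03. Elane, the neutrophil elastase gene, was at 0.154, 0.244 and 0.244 CPM in IRE1PKO and 0.111, 0.114 and 0.270 CPM in IRE1fl, too low to be tested.

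Of 20 acute phase genes other than clade A serpins, 1 rose and 1 fell, with a median log2 fold change of 0.15. As 5.68% of all tested genes were called higher and 3.86% lower, these counts are not read further. Orm2, an orosomucoid gene, rose by 1.94 (SE 0.34, edgeR adjusted p = 0.0229) and Itih3, which carries hyaluronan, fell by 0.77 (SE 0.13, adjusted p = 0.00456). Hp, the haptoglobin gene, had 3649 ± 50.8 CPM in IRE1PKO and 2948 ± 366 CPM in IRE1fl (SD, n = 3 each; adjusted p = 0.128). The Orm2 call was lost without IRE1PKO 01 or IRE1fl 01 and without the filter on low counts. The number that fell was 2 without IRE1PKO 03 or IRE1fl 02, and 4 without that filter. By the DESeq2 Wald test 5 rose and 5 fell. The number that rose was 3 without IRE1fl 02 or IRE1fl 03 and under scaling by library totals alone.

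The genes with the profile nearest to Serpina1e were sought by the root mean square difference between log2 CPM profiles over the 6 libraries, each centred on its own mean, among 11725 genes with a mean of at least 1 CPM. The nearest 6 were Mup12 (0.58 log2 units), Selenbp2 (0.67), Grm8 (0.70), Mup16 (0.76), Mup1 (0.86) and Mup15 (0.86). By edgeR, Selenbp2, Mup1 and Mup15 did not pass (adjusted p = 0.0545, 0.0828 and 0.0709), though all 6 passed by limma-voom. The edgeR calls of Mup12 and Mup16 were each lost in 5 of the 6 fits that left out a library. Grm8 passed (edgeR adjusted p = 3.3e-04) but was near the floor in IRE1PKO, at 0.0513, 0.217 and 0.0489 CPM. The other Serpina1 copies lay farther away, at 1.89 for Serpina1c to 2.23 for Serpina1b. Mup12, a major urinary protein gene, had 13.3, 20.1 and 30.5 CPM in IRE1PKO, against 186, 523 and 438 CPM in IRE1fl. Selenbp2, which encodes a selenium-binding protein, had 31.7, 25.5 and 49.7 CPM in IRE1PKO, against 198, 817 and 1183 CPM in IRE1fl. For Serpina1e, Mup12, Selenbp2, Mup16, Mup1 and Mup15 alike, IRE1fl 01 was the lowest of the IRE1fl libraries, while Grm8, a glutamate receptor gene, was lowest in IRE1fl 02. The highest IRE1fl library was IRE1fl 03 for Serpina1e, Selenbp2, Grm8 and Mup16, but IRE1fl 02 for Mup12, Mup1 and Mup15. All 6 libraries enter this measure and the genotypes differ, so a gene can be near only with a fold change of like size. The Mup genes are near-identical copies, and the split of reads among them is uncertain.

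**Figure D4:**
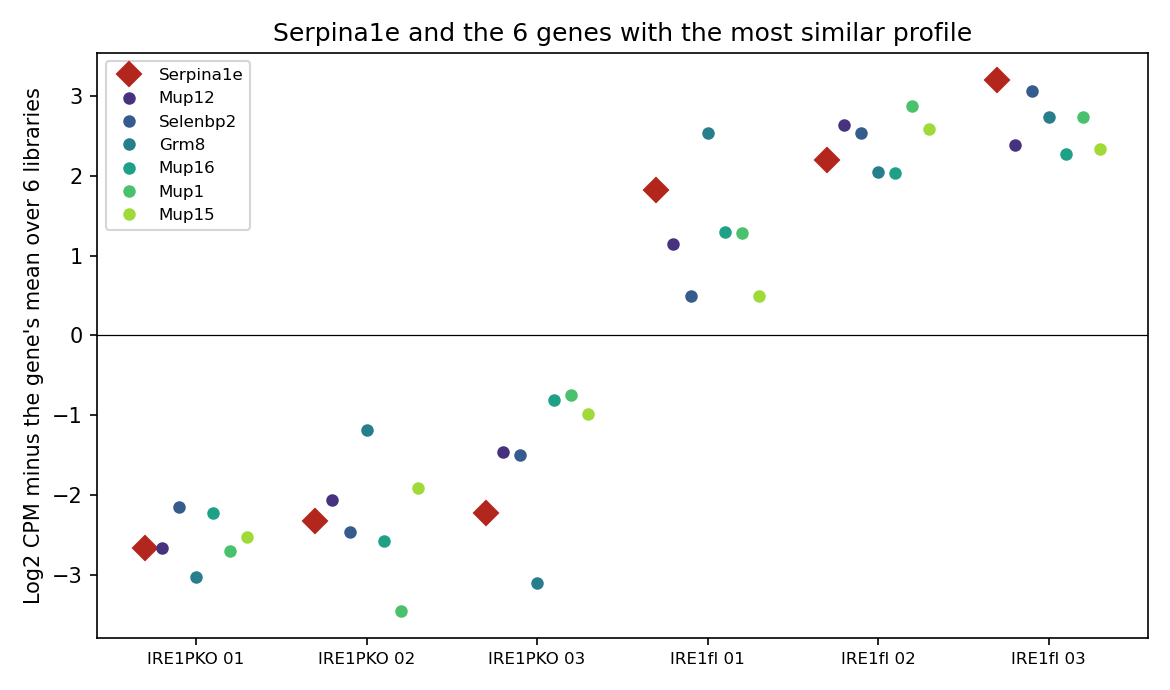
Log2 CPM minus each gene's own mean over 6 libraries, for Serpina1e (red diamonds) and the 6 genes with the nearest profile (circles), IRE1PKO on the left and IRE1fl on the right. Serpina1e runs from -2.67 to -2.23 in IRE1PKO and from 1.82 to 3.21 in IRE1fl, and all 6 other genes are below their mean in each IRE1PKO library and above it in each IRE1fl library.

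For the family sum, which differed less, the nearest profiles were those of Pla1a, a phospholipase (0.03 log2 units), S1pr5 (0.12), Kyat1 (0.13), F7, coagulation factor VII (0.14), Dleu2 (0.14) and Cyp4f14 (0.14). Pla1a had 20.4, 23.4 and 21.2 CPM in IRE1PKO, against 42.4, 42.3 and 60.1 CPM in IRE1fl, and like the sum it was highest in IRE1fl 03. F7 had 68.6, 74.7 and 69.8 CPM in IRE1PKO, against 126, 127 and 150.2 CPM in IRE1fl.

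Male-biased liver genes that depend on growth hormone and STAT5b were listed because Mup and other such genes were already known to differ here. Of 27 tested, 12 fell and 1 rose, with a median log2 fold change of -1.96. Shares over all tested genes were 3.86% lower and 5.68% higher. Gstp1, a glutathione transferase, had a log2 fold change of -1.54 (SE 0.12, edgeR adjusted p = 6.0e-05) and Cspg5 of -2.82 (SE 0.44), while Cyp4a12a, a fatty acid hydroxylase, rose by 2.18 (SE 0.33). Mup3 had 2814, 2826 and 4166 CPM in IRE1PKO, against 5037, 7830 and 6754 CPM in IRE1fl (adjusted p = 0.0149). The Cyp4a12a call was lost in 4 and the Mup3 call in 3 of the 6 fits that left out a library. The number that fell was 22 by limma-voom, 21 by the DESeq2 Wald test and 7 without the filter on low counts. It also depended on single libraries, being 2 without IRE1PKO 01, 3 without IRE1PKO 02, 4 without IRE1fl 02, 6 without IRE1fl 03, 13 without IRE1PKO 03 and 16 without IRE1fl 01. The list median stayed between -2.26 and -1.64 when 1 library was left out.

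Markers of the cells that make and do not make alpha-1-antitrypsin were followed as well. Beside each marker count stand the shares over all tested genes, 3.86% lower and 5.68% higher. Of 18 hepatocyte markers other than Serpina1 genes, 7 fell and none rose, with a median of -0.24. Cps1, which starts the urea cycle, had a log2 fold change of -1.16 (SE 0.15), Tat, tyrosine aminotransferase, of -1.10 (SE 0.18), and Fah of -0.49 (SE 0.10). The summed hepatocyte markers spanned 111934 to 138423 CPM in IRE1PKO and 124378 to 141095 CPM in IRE1fl, which overlap, and Alb itself had 64302 ± 7001 CPM in IRE1PKO and 63170 ± 7020 CPM in IRE1fl (SD, n = 3 each; edgeR adjusted p = 0.933). Without IRE1PKO 02, 4 hepatocyte markers fell. Of 8 stellate cell markers 7 rose, among them Col3a1, Col1a2 and Lrat, and their sum was 465 to 479 CPM in IRE1PKO and 239 to 300.4 CPM in IRE1fl. Of 8 Kupffer cell markers 1, Marco, fell (sum 417 to 585 CPM in IRE1PKO, 356 to 492 CPM in IRE1fl), and of 7 endothelial markers 2, Fcgr2b and Stab2, rose (255 to 349 CPM in IRE1PKO, 224 to 242 CPM in IRE1fl). The endothelial count was 4 without IRE1PKO 03, 5 under scaling by library totals alone, and 0 without any one of the other libraries except IRE1fl 01. Of 5 tested cholangiocyte markers Spp1 rose and Sox9 fell, with sums of 40.8 to 52.7 CPM in IRE1PKO and 35.4 to 39.9 CPM in IRE1fl. Of 9 lymphocyte markers 2, Cd4 and Jchain, fell (sum 5.78 to 8.29 CPM in IRE1PKO, 12.6 to 15.9 CPM in IRE1fl), and 1 did without IRE1PKO 01, IRE1PKO 02 or IRE1fl 03. None of 3 tested neutrophil markers of 8 passed (3.98 to 5.73 CPM in IRE1PKO, 3.85 to 10.6 CPM in IRE1fl). No marker of these lists was at 0 in all libraries. The part of cell make-up in the Serpina1 values was not tested.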

How the data were processed

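The authors deposited raw counts in 1 table, a row per gene symbol and a column per library. Per the submitters' processing notes, reads were placed on mm10. Which aligner, counter and annotation were used is not given in the sources used here. Columns were matched to samples by genotype and replicate number in their names. Even values outnumbered odd ones 2.58 to 3.19 times among values from 1 to 8, so a fragment may be counted by both mates, and limits from counts cover counting error only.

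Counts of 14954 genes that passed filterByExpr were TMM-scaled. The test was that of edgeR 4.0.16 under R 4.3.3 (quasi-likelihood, robust, two-sided, Benjamini-Hochberg over all tested genes, threshold 0.05). CPM values use TMM-scaled totals, and log2 fold changes are IRE1PKO over IRE1fl. For the family sum, the 5 rows were replaced by their summed counts and the table was fitted again. Profiles used counts plus 0.5. The steps were tested on simulated data with 200 genes changed. With 3 libraries a group, no exact permutation p can be below 0.1. The labels do not say that libraries are separate animals, so the p-values reflect library-to-library spread, which may be technical. Coding sequences came from GENCODE M21 (aligned with mafft 7.526), promoters and gene coordinates from RefSeq GRCm38.p6, the same build as mm10.

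The members and the 15 gene lists (195 symbols, all found) were chosen with earlier results of these data known. Named genes are the 5 members, Ern1, up to 3 list members per direction with the smallest p among those past the threshold, genes set for their role, and the 6 nearest profiles. Serpinc1, Hp, Elane and Alb, which fall outside that rule, were added for their role. Alternatives were DESeq2 1.42.0 size factors and Wald test, library totals, 2 other filters, limma-voom 3.58.1, a block on replicate number, and fits without each library. Some named genes are not reported here.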

Additional observations from a re-analysis of the deposited data

How the results depend on the processing

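The log2 fold change of the Serpina1 sum was -1.17, and -1.09 with library totals as the only scaling. With each library left out in turn it ran from -1.25 to -1.01. The Serpina1e value ran from -5.20 to -4.42, that of Serpina1c from -1.27 to -1.07, Serpina1a from -0.95 to -0.83, Serpina1d from -0.86 to -0.66 and Serpina1b from -0.49 to -0.38. The difference in the Serpina1e share ran from -28.4 to -19.5 percentage points. No member changed direction under any alternative run. The calls over all genes, 1426, numbered 653 without IRE1PKO 01, 815 without IRE1PKO 02, 789 without IRE1fl 03, 896 without IRE1fl 02, and up to 1484 without IRE1fl 01. They numbered 1424 with DESeq2 size factors, 1563 with library totals (73.4% higher in IRE1PKO, against 59.5%), 1775 without the filter, 1334 at a mean of 1 CPM, 2072 with the DESeq2 Wald test and 1379 with limma-voom. Library totals shifted the median of all genes by 0.07. Deviations of libraries with the same replicate number correlated by 0.06, -0.02 and 0.08, so the numbers were not taken as pairs. With the replicate block there were 1865 calls, the sum was at -1.16 and Serpina9 passed (adjusted p = 0.0110). Of the other named genes 44 passed, and 26 of these passed in all 6 fits that left out a library. Among genes that did not pass, Serpina12 turned positive with limma-voom (0.02) and without IRE1PKO 02 (0.17), IRE1fl 02 (0.15) or IRE1fl 03 (0.11). Serpina3m (-0.02) and Serpina3n (-0.06) turned negative without IRE1fl 01 and Serpina6 (-0.04) without IRE1PKO 02. Over fits without 1 library these genes ran from -0.54 to 0.17 (Serpina12), -0.02 to 0.04 (Serpina3m), -0.06 to 0.21 (Serpina3n) and -0.04 to 0.14 (Serpina6). The cause was not tested. Depth does not limit the members, which had at least 5600 counts per library, but Serpina9 and the neutrophil genes had few.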

Other observations

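Serpina4-ps1, a serpin pseudogene of the same cluster that was noticed after its values were seen, had 2.29, 1.95 and 29.0 CPM in IRE1PKO, against 41.0, 61.1 and 59.5 CPM in IRE1fl (log2 fold change -2.27, SE 1.21, edgeR adjusted p = 0.343). IRE1PKO 03 stood apart from the other IRE1PKO libraries there. The same library had the highest IRE1PKO level of Serpina3k (3771 CPM, against 1895 and 2346 CPM in the other IRE1PKO libraries) and of Serpina1e (195 CPM, against 144 and 181 CPM), but not of Serpina1a, Serpina1b, Serpina1c or Serpina1d, which were highest in IRE1PKO 02.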
